A study of Homo sapiens with 6 samples.

Results

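The report covers 10 genes for plasma membrane amino acid transporters (SLC7A1, SLC7A5, SLC7A11, SLC3A2, SLC1A4, SLC1A5, SLC38A1, SLC38A2, SLC43A1 and SLC6A9) in DLD1 cells, an established line from a human colorectal adenocarcinoma. They were read through every probe set of the array that names 1 of them and no other gene, which gave 25 probe sets of 54613, or 10 genes of 19775. The genes were chosen from known transporter classes by someone who had already seen how they differed between SAH-BCL9B and vehicle in these arrays. Their differences between the groups are therefore given as a description, with no p-value.

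The study exposed DLD1 cells for 12 h to 10 µM SAH-BCL9B or to vehicle (DMSO), with 3 arrays (Affymetrix U133 Plus 2.0) per group. SAH-BCL9B is a stapled peptide modelled on the helix with which BCL9, a transcriptional coactivator, binds beta-catenin. The arrays came from triplicate cultures of the same line, no control peptide was among the groups, and whether the triplicates were set up independently is not stated, so the spread between arrays may be partly technical. Values are log2 expression levels, and array medians lay between 6.58 and 6.62. By their mean over all arrays, 9 of 10 colorectal epithelial markers lay above the median of all values (6.60). The exception was GPA33, at 6.61 in vehicle and 6.41 in SAH-BCL9B. Above that median also lay 0 of 3 measured leukocyte markers, 1 of 4 endothelial and 2 of 6 fibroblast markers. SAH-BCL9B 2 stood apart from the other 5 arrays in the control probe sets for ACTB, whose 3′ end read 0.74 above its 5′ end on the log2 scale, against 1.20 to 1.38 in the others. The same value for GAPDH (0.14) lay within the 0.09 to 0.17 of the others. Over all probe sets, the SD of its difference was 0.364 from SAH-BCL9B 1 and 0.332 from SAH-BCL9B 3. Between SAH-BCL9B 1 and SAH-BCL9B 3 that SD was 0.186.

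Amino acids cross the plasma membrane through carriers that differ in substrate and in driving force. Some exchange one amino acid for another, some are driven by sodium, and others let their substrate run down its gradient. SLC7A5 and SLC7A11 are light chains that reach the cell surface only when bound by a disulfide bridge to the glycoprotein SLC3A2, the heavy chain. When amino acids run short, the kinase GCN2 raises translation of the transcription factor ATF4, which is known to bind C/EBP-ATF elements in many transporter and amino acid synthesis genes. SLC7A11 is also a well-known target of NRF2, the factor of the oxidative stress response, and SLC7A5 and SLC1A5 of MYC. Rapidly dividing tumour cells commonly carry high levels of SLC7A5, SLC3A2 and SLC1A5.

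The promoter windows below are shown because factors with known DNA elements control several of the 10 genes. The motifs were chosen with the differences between the groups known, so nothing is read from the counts of matches. Whether any of these factors caused the differences was not tested. RefSeq promoters were taken from GRCh38.p14, 250 bases before to 50 after an annotated start, 5′ to 3′ on the gene's strand. They were at hand for 9 of the 10 genes, 16 windows in all, since several genes have more than 1 start. SLC7A11 had no entry, so it was not searched for any motif. 3 motifs were searched on both strands: TGATGNAA for the C/EBP-ATF element, CACGTG for the E-box of MYC and related factors, and TGACNNNGC for the core of the antioxidant element that NRF2 binds. A match to TGATGNAA lay in 5 of the 16 windows, in SLC7A1, SLC3A2, SLC1A4, SLC1A5 and SLC38A1. SLC3A2, SLC1A4, SLC1A5 and SLC38A1 each also had at least 1 window, at another start, without this match. Of all 35116 promoter windows, 3.62% held it, and of 27305 genes 4.46% had it in at least 1 window. Capitals mark the match, on the gene's strand in SLC7A1, SLC1A5 and SLC38A1 and on the opposite strand in SLC3A2 and SLC1A4. Each is shown with up to 40 bases on either side.
SLC7A1 (chr13:29595639-29595721, minus strand, first base of the match at position 8 counted from the start): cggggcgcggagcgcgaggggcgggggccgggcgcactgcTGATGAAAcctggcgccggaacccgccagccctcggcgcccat
SLC3A2 (chr11:62881696-62881748, plus strand, position 38): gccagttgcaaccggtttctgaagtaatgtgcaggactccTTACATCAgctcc
SLC1A4 (chr2:64989352-64989439, plus strand, position -7): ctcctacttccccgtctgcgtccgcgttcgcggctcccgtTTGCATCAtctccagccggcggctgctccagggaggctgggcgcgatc
SLC1A5 (chr19:46784864-46784951, minus strand, position -97): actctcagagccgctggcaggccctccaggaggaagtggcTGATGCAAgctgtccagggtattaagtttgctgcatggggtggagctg
SLC38A1 (chr12:46266473-46266560, minus strand, position -4): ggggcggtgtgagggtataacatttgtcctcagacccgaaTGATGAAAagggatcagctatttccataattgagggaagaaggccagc

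SLC43A1 and SLC7A5 had no match to TGATGNAA in their windows. Whether any of the 3 motifs goes with the size of a difference was not tested. An E-box lay in the window of SLC7A5 and in 1 window of SLC43A1. Another window of SLC43A1, at a different start (chr11:57514860-57515159), held none of the 3 motifs and is not printed. CACGTG lay in 3 of the 16 windows, against 7.26% of all windows. These were windows of SLC43A1, SLC7A5 and, at another start than the match shown above, SLC1A5. TGACNNNGC lay in 4 of the 16 (SLC7A1, SLC7A5, SLC3A2 and SLC1A5), against 13.3% of all windows. Of all genes, 8.77% had CACGTG and 16.1% had TGACNNNGC in at least 1 window. The window of SLC43A1 with the E-box and the window of SLC7A5 are given whole. The E-box is in capitals in both, and the match to TGACNNNGC also in SLC7A5.
SLC43A1 (chr11:57515653-57515952, minus strand, E-box at position -112): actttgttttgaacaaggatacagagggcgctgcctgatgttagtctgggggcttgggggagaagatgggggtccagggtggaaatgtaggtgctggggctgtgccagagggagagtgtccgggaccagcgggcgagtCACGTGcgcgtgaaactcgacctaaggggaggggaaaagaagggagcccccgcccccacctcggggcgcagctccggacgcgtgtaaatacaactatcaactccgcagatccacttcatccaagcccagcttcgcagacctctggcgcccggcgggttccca
SLC7A5 (chr16:87869458-87869757, minus strand, E-box at position -130, antioxidant core at position -2): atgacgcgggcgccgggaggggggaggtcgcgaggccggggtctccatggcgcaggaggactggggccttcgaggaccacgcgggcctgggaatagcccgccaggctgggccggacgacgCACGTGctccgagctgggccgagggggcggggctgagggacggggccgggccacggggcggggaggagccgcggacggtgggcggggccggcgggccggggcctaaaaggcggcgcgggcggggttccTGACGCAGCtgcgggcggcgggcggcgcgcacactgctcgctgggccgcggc
None of the 3 motifs lay in the windows of SLC38A2 and SLC6A9, and that of SLC38A2 is shown as the counterpart of its paralog SLC38A1.
SLC38A2 (chr12:46372724-46373023, minus strand, no match): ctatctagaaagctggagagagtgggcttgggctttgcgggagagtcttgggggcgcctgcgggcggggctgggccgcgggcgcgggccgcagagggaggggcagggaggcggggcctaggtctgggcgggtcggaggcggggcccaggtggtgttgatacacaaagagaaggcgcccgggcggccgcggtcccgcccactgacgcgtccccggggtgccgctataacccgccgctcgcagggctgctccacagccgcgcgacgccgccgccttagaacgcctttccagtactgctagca
 A match says only that these letters are there, and a missing match only that they are not within the window. Sequence outside the windows was not searched, and no binding was measured.

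Of the 25 transporter probe sets, 24 had a lower mean in SAH-BCL9B than in vehicle, and in 19 every SAH-BCL9B array lay below every vehicle array, which was so for 9.73% of all probe sets. The log2 differences ran from -1.21 (SLC43A1) to 0.06 (1 of the 5 probe sets of SLC7A1), with a median of -0.48, against a median of 0.01 over all probe sets. In limma's fit over all 54613 probe sets, 10 of the 25 passed a Benjamini-Hochberg adjusted p of 0.05, each of them lower in SAH-BCL9B, and 1.37% of all probe sets passed in that direction. They were the probe sets of SLC43A1 and SLC7A5, 1 of SLC7A1, 2 of SLC7A11, 3 of SLC1A4 and 2 of SLC38A2. With 1 probe set per gene, the brightest, 9 of the 10 genes passed, and 3.43% of all 19775 genes passed in that direction. With 1 array left out it was 5 to 8 genes: SLC38A1 was lost without any 1 of the 6 arrays, and SLC3A2, SLC1A5 and SLC38A2 without each array except SAH-BCL9B 2. Nothing is read from these counts, since the same contrast was known when the genes were chosen. Since RNA came from whole cultures, less transcript in every cell and loss from some of the cells cannot be told apart.

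**Figure D1:**
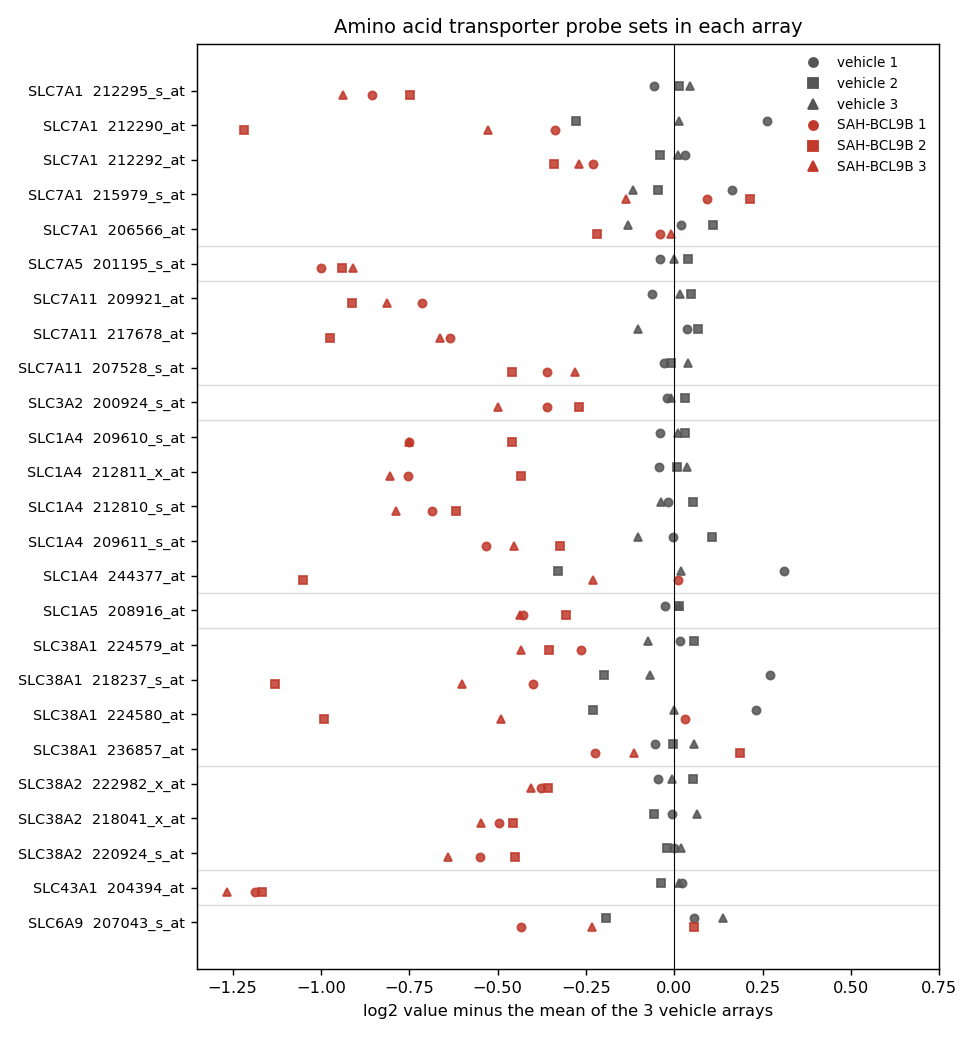
Each row is 1 of the 25 probe sets and each point 1 array, plotted as its log2 value minus the mean of the 3 vehicle arrays (vehicle grey, SAH-BCL9B red, symbol by replicate number). In 19 rows the 3 red points lie left of all 3 grey points, farthest in SLC43A1, and in 4 rows, of SLC7A1, SLC1A4 and SLC38A1, the points of a group are spread widely with SAH-BCL9B 2 lowest.

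Large neutral amino acids (leucine, isoleucine, valine, phenylalanine) are carried by SLC43A1, a facilitative carrier also called LAT3, and by SLC7A5, the exchanger LAT1. SLC43A1 (204394_at) read 9.74, 9.68 and 9.73 on the log2 scale in the vehicle arrays and 8.53, 8.55 and 8.45 in the SAH-BCL9B arrays. The groups did not overlap, and the SD between arrays was 0.03 in vehicle and 0.05 in SAH-BCL9B. The mean was 2.31-fold lower with SAH-BCL9B, a log2 difference of -1.21 ± 0.08 (limma's SE, n = 3 per group as for every value here). SLC7A5 (201195_s_at) read 12.71, 12.79 and 12.75 in vehicle and 11.75, 11.81 and 11.84 in SAH-BCL9B. Again the groups were apart, and the difference was -0.95 ± 0.08, or 1.93-fold lower. Each of these genes had 1 probe set, so neither difference has a second reading on the array.

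Cationic amino acids (arginine, lysine, ornithine) enter mainly through SLC7A1, the carrier CAT-1, which had 5 probe sets. The brightest, 212295_s_at, read 13.22, 13.29 and 13.32 in vehicle and 12.42, 12.53 and 12.34 in SAH-BCL9B, with no overlap. It was 1.79-fold lower, a log2 difference of -0.84 ± 0.09. The others did not all follow it: the difference was -0.69 ± 0.24 for 212290_at, -0.28 ± 0.08 for 212292_at, -0.09 ± 0.10 for 206566_at and 0.06 ± 0.12 for 215979_s_at. Of these, 212290_at and 212292_at kept the groups apart, while in 206566_at and 215979_s_at the groups overlapped and every array lay below the median of all values. The mean over the 5 probe sets was -0.37, smaller in size than the -0.84 of the brightest one.

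Cystine enters in exchange for glutamate through SLC7A11, the light chain xCT, whose cystine supplies glutathione synthesis. Its probe set 209921_at read 12.28, 12.39 and 12.36 in vehicle and 11.63, 11.43 and 11.53 in SAH-BCL9B. The log2 difference was -0.81 ± 0.09, or 1.75-fold lower, with the groups apart. A second probe set, 217678_at, differed by -0.76 ± 0.12 and the third, 207528_s_at, by -0.37 ± 0.09, both also without overlap, so all 3 readings of the gene had the same direction with sizes that differed.

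The heavy chain SLC3A2, also known as CD98 or 4F2hc, binds both SLC7A5 and SLC7A11. Its 1 probe set (200924_s_at) read 11.84, 11.89 and 11.85 in vehicle and 11.50, 11.59 and 11.36 in SAH-BCL9B, a log2 difference of -0.38 ± 0.09, or 1.30-fold lower. The groups did not overlap. Taken within each array against SLC3A2 and set to a vehicle mean of 0, SLC7A5 stood at -0.02 to 0.01 in vehicle and at -0.64, -0.67 and -0.41 in SAH-BCL9B. For SLC7A11 the same difference was -0.04 to 0.03 in vehicle and -0.35, -0.64 and -0.31 in SAH-BCL9B. At these probe sets both light chains lay further below vehicle than SLC3A2 in each of the 3 SAH-BCL9B arrays. That depended on the probe set: 207528_s_at of SLC7A11 differed by -0.37, much as SLC3A2 did (-0.38). The values are a description of the probe sets and say nothing of the assembled protein.

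SLC3A2 also pairs with light chains outside the chosen 10, and these were tested in the fit of 1 probe set per gene. SLC7A7, the light chain of system y+L, fell (8.77, 9.08 and 8.82 in vehicle, 8.14, 8.44 and 8.23 in SAH-BCL9B; log2 change -0.62 ± 0.12, limma adjusted p = 0.0197). The call was lost when vehicle 1, vehicle 2, SAH-BCL9B 1 or SAH-BCL9B 3 was left out (adjusted p from 0.0032 to 0.08 over 15 alternatives). SLC7A6, the other light chain of system y+L, had a value of -0.10 ± 0.09 (adjusted p = 0.639) with overlapping groups. SLC7A8, the exchanger LAT2, had 0.23 ± 0.08 (adjusted p = 0.14), with all 3 SAH-BCL9B arrays above all 3 vehicle arrays. SLC7A10, of the small neutral exchanger Asc-1, lay below the median of all values in both groups and had 0.05 ± 0.09 (adjusted p = 0.851). The signs of the probe sets disagreed in SLC7A6 (1 of 3) and SLC7A8 (1 of 5). Whether the light chains differed from each other in their change was not tested.

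**Figure D2:**
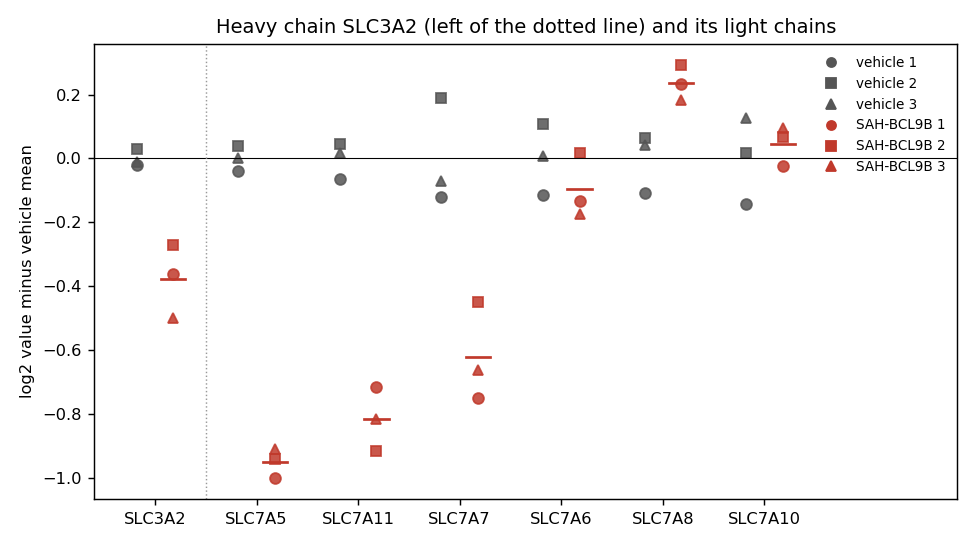
Points are single arrays (vehicle grey, SAH-BCL9B red), plotted as the log2 value minus the vehicle mean of that gene, and red bars are SAH-BCL9B means. The heavy chain SLC3A2 had a mean of -0.38, below it lay SLC7A5 (-0.95), SLC7A11 (-0.81) and SLC7A7 (-0.62), and SLC7A8 lay above its vehicle arrays at 0.23.

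Small neutral amino acids are exchanged by the sodium-dependent carriers SLC1A4 (ASCT1: alanine, serine, cysteine) and SLC1A5 (ASCT2, a main route for glutamine). SLC1A4 had 5 probe sets, all lower in SAH-BCL9B. The brightest, 209610_s_at, read 11.99, 12.06 and 12.04 in vehicle and 11.28, 11.57 and 11.28 in SAH-BCL9B, a log2 difference of -0.65 ± 0.10, or 1.57-fold lower. In 4 of the 5 the groups were apart, with differences of -0.70 (212810_s_at), -0.66 (212811_x_at), -0.65 and -0.44 (209611_s_at), and in the fifth, 244377_at (-0.42 ± 0.28), they overlapped. SLC1A5 had 1 probe set (208916_at), with 11.20, 11.24 and 11.24 in vehicle and 10.80, 10.92 and 10.79 in SAH-BCL9B. It was 1.31-fold lower (-0.39 ± 0.08), with the groups apart. Both paralogs were thus lower, and the mean over the probe sets of SLC1A4 was -0.57.

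Sodium-coupled uptake of alanine, serine and glutamine, known as system A, runs through SLC38A1 (SNAT1) and SLC38A2 (SNAT2), the latter a carrier known to be induced when amino acids are scarce. The 3 probe sets of SLC38A2 lay close together in their difference: -0.55 ± 0.09 for 220924_s_at, -0.50 ± 0.08 for 218041_x_at and -0.38 ± 0.08 for 222982_x_at. The brightest, 222982_x_at, read 14.02, 14.12 and 14.06 in vehicle and 13.69, 13.71 and 13.66 in SAH-BCL9B. All 3 kept the groups apart. The suffix _x marks probe sets that may also bind other transcripts, and the probe set without that suffix gave the largest of the 3 differences.

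SLC38A1 was less even. Its brightest probe set, 224579_at, read 12.90, 12.94 and 12.81 in vehicle and 12.62, 12.53 and 12.45 in SAH-BCL9B, a difference of -0.35 ± 0.09, or 1.27-fold lower with the groups apart. 218237_s_at differed by -0.71 ± 0.20 and 224580_at by -0.48 ± 0.25, with a wide spread between arrays, and 236857_at, below the median of all values, by -0.05 ± 0.12. The size of the difference in SLC38A1 thus depended on the probe set read.

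Glycine is taken up by SLC6A9, the sodium- and chloride-dependent carrier GlyT1, best known from the nervous system. Its 1 probe set (207043_s_at) read 5.32, 5.07 and 5.40 in vehicle and 4.83, 5.32 and 5.03 in SAH-BCL9B. These values lay below the median of all values and the groups overlapped, so the log2 difference of -0.21 ± 0.15 was within the spread between arrays. It was the 1 gene of the 10 that did not pass with 1 probe set per gene.

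The dimmest probe sets had the smallest differences. In the 4 probe sets below the median of all values (206566_at and 215979_s_at of SLC7A1, 236857_at of SLC38A1 and that of SLC6A9) the difference ran from -0.21 to 0.06. In the 21 above it the difference ran from -1.21 to -0.28, and all 21 were negative, against 46.7% of all probe sets above the median. Among these 21 the brightest did not differ most: 222982_x_at of SLC38A2 (14.07 in vehicle) differed by -0.38, and SLC43A1 (9.72) by -1.21. The deposited processing is known to shrink differences of dim probe sets, and signal over background was not measured here, so a small difference in a dim probe set does not show that the transcript was steady.

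**Figure D3:**
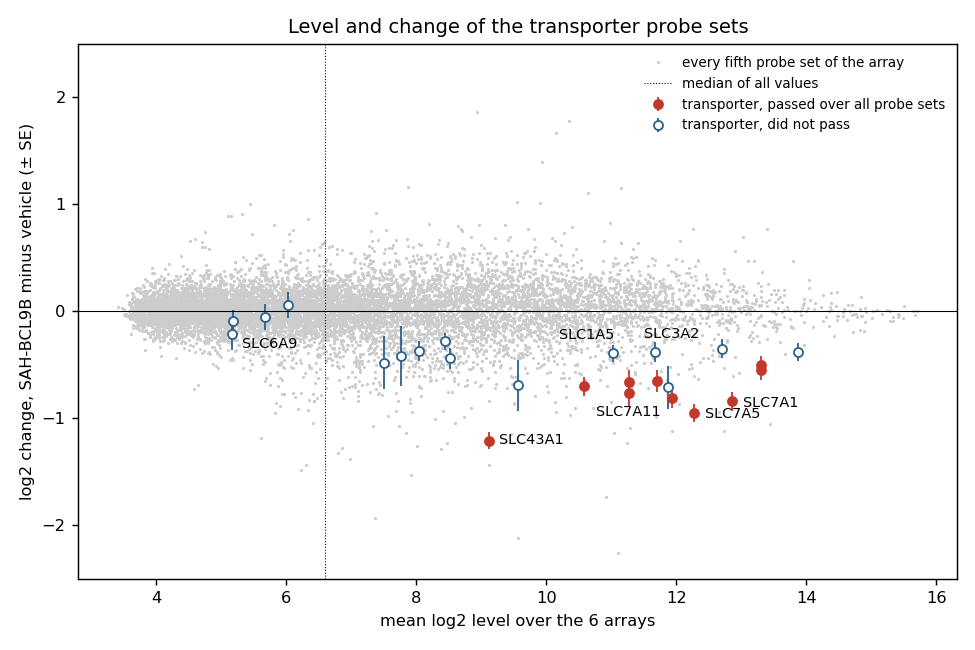
The x axis is the mean log2 level over the 6 arrays and the y axis the log2 change with its SE for the 25 transporter probe sets, over grey points for 1 in 5 probe sets of the array. The 10 filled red points passed an adjusted p of 0.05 over all probe sets and range from -1.21 (SLC43A1) to -0.50; the 4 transporter probe sets left of the dotted line at 6.60 lie between -0.21 and 0.06.

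The probe sets of 1 gene also differed in how widely the arrays of a group were spread. In 4 of the 25 (244377_at of SLC1A4, 224580_at and 218237_s_at of SLC38A1, and 212290_at of SLC7A1) the SD within groups was 0.32 to 0.45, against 0.04 to 0.21 in the other 21. These 4 shared their order of arrays: vehicle 1 was the highest and vehicle 2 the lowest of its group in all 4, and SAH-BCL9B 1 was the highest and SAH-BCL9B 2 the lowest in all 4. In the other 21, SAH-BCL9B 2 was the highest of its group in 14. Without SAH-BCL9B 2, the differences of these 4 came to -0.11 for 244377_at, -0.23 for 224580_at, -0.43 for 212290_at and -0.50 for 218237_s_at, where they had been -0.42, -0.48, -0.69 and -0.71. SAH-BCL9B 2 was also the array with the lowest 3′ minus 5′ value of ACTB (0.74), and with that value as a covariate, an alternative added after seeing the data, the differences were -0.09 for 244377_at, -0.23 for 224580_at, -0.41 for 212290_at and -0.47 for 218237_s_at. Without both vehicle 3 and SAH-BCL9B 2 they were -0.10, -0.23, -0.42 and -0.53 in the same order. With 1 array so far from the others in ACTB, that array and the covariate cannot be told apart. For the brightest probe sets the differences without SAH-BCL9B 2 were -1.23 for SLC43A1, -0.96 for SLC7A5, -0.90 for SLC7A1, -0.76 for SLC7A11 and -0.75 for SLC1A4.

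Of 29 other plasma membrane amino acid transporters listed, 27 were measured, 13 of them below the median level of all values; 2 fell, 2 rose and 23 did not pass, with a median log2 change of 0.06 against 0.02 over all genes, of which 3.43% fell and 3.49% rose. With 27 genes, these counts are near that background. This list and the others described below were drawn up with earlier results of these data known. Their counts and adjusted p-values are therefore a description, and nothing is read from the counts. SLC7A7 is described above. SLC6A20, which carries proline and related imino acids, fell from 8.06 ± 0.09 to 7.59 ± 0.05 (SD; log2 change -0.48 ± 0.08, SE, limma adjusted p = 0.0147). SLC1A3, the glutamate carrier EAAT1, rose from 7.88 ± 0.09 to 8.57 ± 0.13 (0.69 ± 0.09, adjusted p = 0.00759), and kept its call under all 15 alternatives. SLC16A10, the aromatic amino acid carrier TAT1, rose by 0.41 ± 0.09 (adjusted p = 0.0311), but 2 of its 3 probe sets had the opposite sign, and averaging its probe sets gave 0.06 (adjusted p = 0.90, from 0.011 to 0.90 over the alternatives). It also missed the threshold without any 1 array except SAH-BCL9B 2. SLC6A20 lost its call when vehicle 1, vehicle 2, SAH-BCL9B 1 or SAH-BCL9B 3 was left out (adjusted p from 0.0049 to 0.067 over the alternatives).

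A few relatives of the chosen genes that did not pass are given with their values. SLC43A2 (LAT4), the paralog of SLC43A1, had 0.06 ± 0.08 (limma adjusted p = 0.775), with all its arrays between 7.14 and 7.32. SLC7A2, the cationic carrier CAT-2, had -0.20 ± 0.09 (adjusted p = 0.241; 2 of its 3 probe sets had the opposite sign), and SLC38A5, another glutamine carrier of the SLC38 family, 0.04 ± 0.16 (adjusted p = 0.935) at a level below the median. SLC1A1, the glutamate and cysteine carrier EAAT3, had 0.26 ± 0.08 (adjusted p = 0.0915), with the groups apart. SLC43A2, SLC7A2 and SLC38A5 were picked after their values were seen, and relatives that passed, SLC1A3 and SLC7A7, are described above.

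Of 21 measured carriers of lysosomal and mitochondrial membranes, 2 rose and 19 did not pass, with a median log2 change of 0.10, where 3.49% of all genes rose. SLC36A1, a proton-coupled carrier that exports small amino acids from lysosomes, rose by 0.58 ± 0.09 (limma adjusted p = 0.00914), from 9.47, 9.46 and 9.40 to 10.10, 10.08 and 9.88. With the mean of its 2 probe sets it missed the threshold (adjusted p from 0.00067 to 0.15 over the alternatives). SFXN3, a mitochondrial serine carrier, rose by 0.54 ± 0.10 (adjusted p = 0.0197), and lost its call when vehicle 1, vehicle 3, SAH-BCL9B 1 or SAH-BCL9B 3 was left out (adjusted p from 0.0023 to 0.095). With a filter on low values 4 genes of this list passed.

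Of 31 measured amino acid sensing genes, 2 fell, 5 rose and 24 did not pass, with a median of 0.10, where 3.43% of all genes fell and 3.49% rose. SESN2, the leucine sensor that restrains mTORC1 and an ATF4 target, fell 1.85-fold, from 9.98 ± 0.05 to 9.09 ± 0.11 (SD; log2 change -0.88 ± 0.08, limma adjusted p = 0.00221), and passed in all 15 alternatives. MLST8, a subunit of mTOR complexes, fell by 0.38 on the log2 scale (adjusted p = 0.028; named after its value was seen). SESN3, another sestrin, rose by 0.69 ± 0.15, the Rag GTPase gene RRAGC by 0.50 ± 0.09, the Ragulator genes LAMTOR3 and LAMTOR5 by 0.45 ± 0.08 and 0.39 ± 0.09, and the folliculin partner gene FNIP1 by 0.41 ± 0.09 (adjusted p = 0.0387, 0.0151, 0.0193, 0.0474 and 0.0361). These 5 and MLST8 each lost their call when vehicle 1, vehicle 3 or SAH-BCL9B 3 was left out, and the count of called genes in the list ran from 1 to 8 when 1 array was left out. A probe set of the opposite sign was found in SESN3 (2 of 7), RRAGC (1 of 3), LAMTOR3 (1 of 2) and FNIP1 (1 of 5). With the mean of all probe sets SESN3, RRAGC, LAMTOR3 and FNIP1 did not pass.

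Enzymes that make or use the carried amino acids had 4 members that fell and 2 that rose among 35 measured (median -0.09), against 3.43% and 3.49% of all genes. Those that fell were ASNS, which makes asparagine from glutamine (-1.08 ± 0.08, limma adjusted p = 0.000739), CHAC1, which degrades glutathione (-0.90 ± 0.10, 0.00347), PYCR1, of proline synthesis (-0.69 ± 0.10, 0.00939), and the mitochondrial serine and glycine enzyme gene SHMT2 (-0.60 ± 0.10, 0.0133). GCLM, of glutathione synthesis, rose by 0.66 ± 0.07 (adjusted p = 0.00344), in the opposite direction to SLC7A11, which feeds the same pathway with cystine. ARG1, the liver arginase, rose by 0.45 ± 0.11 (0.0466) from a level below the median of all values, and 2 of its 4 probe sets had the opposite sign. ASNS and CHAC1 passed in all 15 alternatives, PYCR1 missed the threshold without vehicle 1, and SHMT2 when any of vehicle 1, vehicle 2, SAH-BCL9B 1 and SAH-BCL9B 3 was left out. ARG1 missed it without any 1 array except SAH-BCL9B 1, and GCLM with the mean of its 3 probe sets (0.54, adjusted p = 0.085; from 2.9e-05 to 0.085 over the alternatives).

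Among 17 measured regulators of the transporters, 6 fell, 1 rose and 10 did not pass, against 3.43% of all genes that fell and 3.49% that rose. This list too was drawn up with earlier results of these data known, so nothing is read from the count. ATF4 itself read 14.43, 14.40 and 14.36 in vehicle and 14.04, 13.96 and 13.86 in SAH-BCL9B, and fell by 0.44 on the log2 scale (SE 0.08, limma adjusted p = 0.0177). Its target TRIB3, a pseudokinase, fell by 0.94, and CEBPB and CEBPG, whose proteins pair with ATF4 on C/EBP-ATF elements, by 0.78 and 0.55 (adjusted p = 0.00115, 0.00268 and 0.0256). NEDD4, a ubiquitin ligase, fell by 0.44 (adjusted p = 0.0162), and DDIT3, the stress factor CHOP, by 0.41 (0.0475; named after its value was seen). MAFG, a small MAF protein that pairs with NRF2, rose by 0.53 ± 0.07 (0.00683). NFE2L2, which encodes NRF2, had a value of -0.19 ± 0.11 (adjusted p = 0.373) and MYC of 0.31 ± 0.09 (0.0882). In MYC every SAH-BCL9B array lay above every vehicle array, and in NFE2L2 the groups overlapped. ATF5 had 0 ± 0.08 (limma adjusted p = 0.997) and ATF3 0.10 ± 0.16 (0.826), both named after their values were seen. A probe set of the opposite sign was found in ATF5 (2 of 4) and ATF3 (1 of 3). The call of ATF4 was lost when vehicle 1, vehicle 2 or SAH-BCL9B 3 was left out, that of CEBPG without any vehicle array or SAH-BCL9B 3, and that of DDIT3 without any 1 array. NEDD4 lost its call when vehicle 1, vehicle 2, SAH-BCL9B 1 or SAH-BCL9B 3 was left out. ATF4 and NRF2 are controlled largely after transcription, so these RNA levels do not give their activity.

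**Figure D4:**
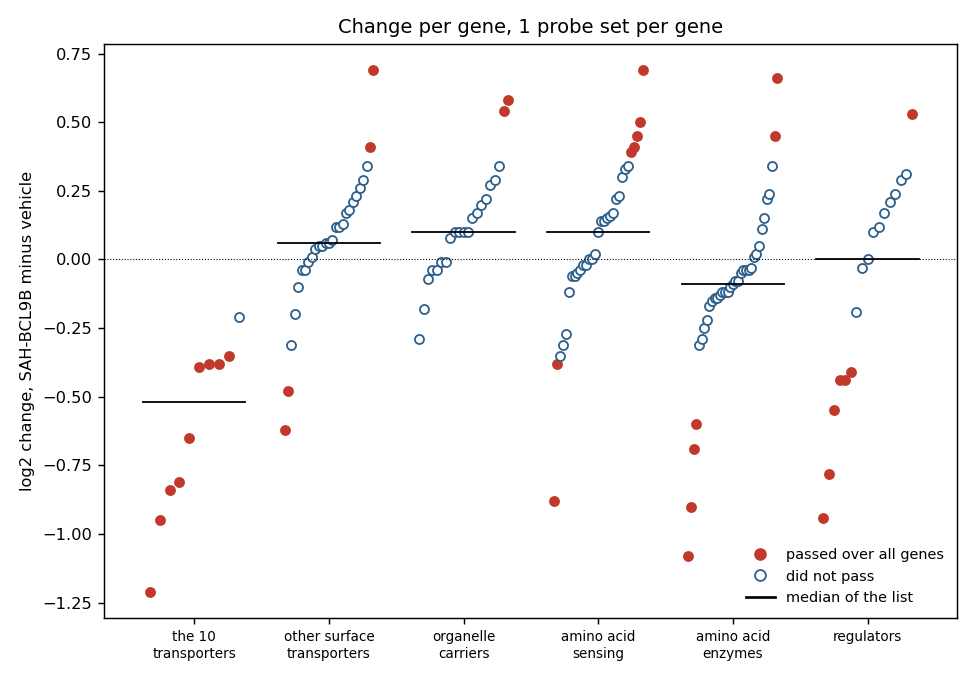
Each point is 1 gene, plotted by its log2 change with 1 probe set per gene; filled red points passed an adjusted p of 0.05 over all 19775 genes and black bars are medians. The 10 chosen transporters lie between -1.21 and -0.21 with a median of -0.52, and since they were chosen with these differences known, their place is not compared with that of the other lists, whose medians lie between -0.09 and 0.10.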

How the data were processed

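The authors deposited log2 expression values of 54675 probe sets in 6 arrays; RMA and affy appear among the submitters' processing notes (versions not given in the sources used here). This method gives arrays a common distribution, so that a shift shared by most genes is lost, and shrinks differences of dim probe sets. Leaving out 62 array controls, 54613 probe sets were fitted for the difference SAH-BCL9B minus vehicle without covariates, using lmFit and eBayes of limma 3.58.1 (R 4.3.3), with Benjamini-Hochberg adjustment over all of them and a threshold of 0.05. A second fit held 1 probe set per gene, the one with the highest mean, over 19775 genes; the transporters' SEs come from the first, those of other genes from the second. No filter on low values was set. The platform annotation names 1 gene for 41091 probe sets, several for 1801 and none for 11721, and 0 probe sets named a transporter together with another gene. Of the 41091, 41037 matched RefSeq (GRCh38.p14) by Entrez ID.

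The 10 genes, the 5 other lists and the motifs were chosen with earlier results of these data known. Named genes are all 10, up to 6 called genes per list by size of change, and 3 bright uncalled transporters (SLC1A1, SLC7A8, SLC7A6). Promoters named by rule were those of the gene with the largest difference and of like pairs (SLC1A4 and SLC1A5, SLC38A1 and SLC38A2, SLC7A5 and SLC7A11, the last without an entry), cut to the C/EBP-ATF match where 1 was found. The windows of SLC3A2 and SLC7A1 were added after the matches were seen. The rule does not name DDIT3, MLST8, SLC43A2, SLC7A2, SLC38A5, SLC7A10, NFE2L2, MYC, ATF3 and ATF5, which were added after values were seen. The procedure was also run on simulated data, from which nothing is read here. Groups and replicate numbers come from the sample titles. Same-numbered arrays of the 2 groups were checked for shared deviations (correlations 0.41, 0.06 and -0.31), and the numbers were not taken as pairs. Alternatives were a filter on low values, a block for the replicate number, averaging the probe sets of a gene, quantile normalization repeated, median centring, array weights, a robust fit with variance trend, and leaving out each array. The ACTB covariate and the fit without vehicle 3 and SAH-BCL9B 2 were added after seeing the data. Plots were drawn with matplotlib 3.10.9.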

Additional observations from a re-analysis of the deposited data

How the results depend on the processing

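The median log2 difference of the 25 transporter probe sets kept its direction in all 14 alternatives (-0.55 to -0.43 with 1 array left out). Of 346 single differences under the alternatives, 345 moved by less than that probe set's own SD between replicates. The exception was 209611_s_at of SLC1A4, at -0.55 without vehicle 3 and SAH-BCL9B 2. That SD was 0.32 to 0.45 in the 4 widely spread probe sets, which allowed large moves. 244377_at of SLC1A4 went from -0.42 to -0.09 with the ACTB covariate and was counted as within it. Counts of calls moved more. With the replicate number as a block, 2 transporter probe sets of 171 called and 5 transporter genes of 296 passed. So did 2 of the other plasma membrane transporters, 1 organelle carrier, 1 sensing gene and 2 regulators. MAFG, which passed in the other 14 alternatives, was lost there (limma adjusted p = 0.053). Whether the numbers are pairs stayed unclear. Deviations of same-numbered arrays correlated at 0.41, 0.06 and -0.31, and those of vehicle 3 and SAH-BCL9B 2 at 0.38. With a filter on low values 17 of 2722 probe sets called were transporters, and 2272 genes, 4 organelle carriers and 13 sensing genes passed. The variance trend called 2923 probe sets, 2456 genes, 4 organelle carriers and 12 sensing genes, and array weights 2738, 2172 and 4 organelle carriers. The mean of all probe sets left 3 sensing genes. Without vehicle 3 and SAH-BCL9B 2, 836 probe sets passed. With each array left out in turn, calls ranged from 2 to 11 of the transporter probe sets (main count 10), 97 to 1478 of all probe sets (1363), 5 to 8 of the transporter genes (9) and 316 to 1426 of all genes (1370). In the same way they ranged from 1 to 5 of the other plasma membrane transporters (4), 1 to 2 organelle carriers (2), 1 to 8 sensing genes (7), 3 to 5 enzymes (6) and 3 to 6 regulators (7). The cause of these shifts was not tested, beyond fewer arrays or features fitted. With 3 arrays per group and no measure of signal over background, small differences and those of dim probe sets could not be resolved.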
